A study of Homo sapiens with 6 samples.

Results

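The NDRG (N-myc downstream-regulated gene) family was examined in RNA-sequencing of 12Z cells, a long-used line of human endometriosis epithelial cells. The 4 members NDRG1, NDRG2, NDRG3 and NDRG4 were taken from the 60660 annotated genes of the count tables by matching their gene identifiers. The family was chosen by the readout of NDRG4, which was among the most lowered genes linked to cell migration when LINC01133, a long non-coding RNA, was knocked down in these libraries. The values of NDRG4 are therefore a description without a test, whereas the choice cited no value of NDRG1, NDRG2 or NDRG3, although it was made with results of these data in view. Control cells (n = 3 libraries) received a non-targeting control siRNA oligo, and knockdown cells (n = 3) received the siRNA LINC01133a at 10 nM, by lipid transfection. The labels do not tie a dose to the control oligo. All cells were lysed 72 h after transfection and polyA RNA was sequenced. A single cell line and a single LINC01133 siRNA were sequenced, so a gene-specific and an oligo-specific response cannot be told apart. The paper states that the libraries of a group were biological replicates.

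The NDRG proteins share an alpha/beta hydrolase fold but lack the residues that such enzymes use for catalysis. NDRG1 is named for its repression by N-myc and is a stress gene that is induced by hypoxia and by iron chelation, phosphorylated by SGK1 and GSK3, and involved in the recycling of E-cadherin through endosomes. NDRG2 is repressed by MYC and abundant in astrocytes, NDRG3 is a lactate-binding protein that is removed by prolyl hydroxylation when oxygen is present, and NDRG4 is best known from brain and heart.

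The oligo used for the knockdown is shown because each comparison rests on it. It is a duplex of 21 bases per strand, printed 5′ to 3′ with the seed (bases 2 to 8, the stretch that can pair with other transcripts) in capitals.
guide strand: uCCAUUCUcagguaacuucaa
passenger strand: gAAGUUACcugagaauggatt

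The libraries held 27742562 to 37551194 counts on genes. LINC01133, the targeted RNA, had 813, 818 and 837 normalised counts in control and 130, 131 and 138 in knockdown libraries, so the groups were far apart and matched their labels. Its level was 16.1% of control (log2 fold change -2.63, SE 0.070, adjusted p = 3.5e-11, edgeR quasi-likelihood test). Of the defining epithelial markers, 6 of 7 had a mean over 1 CPM (counts per 1000000 counts of the TMM-adjusted library size), and EPCAM had 0.471 CPM. The summed epithelial markers were 6199 to 6539 CPM in control and 3969 to 4151 CPM in knockdown libraries. They came mostly from KRT8, KRT18 and KRT19 (means 2662, 1494 and 953 CPM). The groups overlapped for MUC1 (20.7 to 25.4 against 19.2 to 22.5 CPM) and for EPCAM. The paper reports that its follow-up assays did not bear out the reduction of KRT7 and KRT19 but did bear out that of CDH1. All 8 mesenchymal or stromal markers were over 1 CPM, with sums of 5429 to 6032 CPM in control and 4578 to 4832 CPM in knockdown libraries. The groups overlapped for COL1A1, the largest (2555 to 2963 against 2470 to 2605 CPM), and nearly met for LUM (339 to 378 against 319 to 338 CPM). VIM (1595 to 1654 against 1116 to 1257 CPM) and CDH2 (378 to 418 against 170 to 182 CPM) lay further apart. The epithelial and the mesenchymal or stromal sums moved with the lowering of NDRG1 and NDRG4, and their part in it was not tested. In bulk RNA, fewer cells of a type and less RNA per cell cannot be told apart. For the tissues in which NDRG2 and NDRG4 are best known, the neural or glial markers summed to 6.82 to 8.70 CPM in control and 3.42 to 4.73 CPM in knockdown libraries, mostly from MAP2 (mean 4.79 CPM), with AQP4 at 0 counts throughout. This sum was also lower with NDRG4, and its part in that was not tested. The 6 heart or skeletal muscle markers summed to at most 0.468 CPM, with MYH7 at 0 counts. Leukocyte markers summed to 50.0 to 56.4 CPM in control and 26.2 to 28.0 CPM in knockdown libraries, of which CD14 made up most (mean 39.7 CPM) and CD3E had 0 counts. Endothelial markers summed to 2.47 to 2.84 CPM in control and 5.50 to 6.81 CPM in knockdown libraries, mostly from CDH5.

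All 4 NDRG members passed the filter on low counts and were among the 15155 genes tested. A gene counted as differentially expressed (DE) when its fold change was over 1.5 in either direction and its adjusted p was under 0.05, and 11.7% of the tested genes met this rule. DE genes that were lower in knockdown cells made up 6.43% of the tested genes, and those that were higher 5.3%. NDRG1 was DE and lower, NDRG2 and NDRG3 were not DE, and NDRG4 was lower by the contrast that chose the family, so nothing is read from its call. The normalised counts of the groups did not overlap for any member, which was also the case for 57.3% of all tested genes.

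NDRG1, the stress- and hypoxia-inducible member, was the most counted of the family. It lies on the minus strand of chromosome 8 at chr8:133237175-133302022 (GRCh38, identifier ENSG00000104419.17). Its control libraries held 6296, 6801 and 6857 normalised counts, and its knockdown libraries held 3756, 3920 and 3673. Each knockdown library was well below each control library, and the spread within a group was small beside the gap. The mean fell from 6651 ± 309 to 3783 ± 126 (SD, n = 3), or to 56.9% of control. The log2 fold change was -0.81 (SE 0.043, 95% interval -0.91 to -0.72), with an adjusted p of 1.2e-08 in the edgeR quasi-likelihood test across all genes. NDRG1 ranked 567 of 15155 by log2 fold change from the most lowered gene.

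NDRG2, the astrocyte-rich member, lies on the minus strand at chr14:21016763-21070872 (ENSG00000165795.23). It had 344, 351 and 325 normalised counts in control and 281, 297 and 314 in knockdown libraries. The highest knockdown library came close to the lowest control library, although the ranges did not cross. Its mean was 340 ± 13.4 in control and 297 ± 16.8 in knockdown cells (SD, n = 3), a log2 fold change of -0.20 (SE 0.078, 95% interval -0.37 to -0.029). The adjusted p of 0.052 in the edgeR quasi-likelihood test missed the threshold, and leaving out control replicate 3 (adjusted p = 0.048) or knockdown replicate 3 (adjusted p = 0.047) brought it just under. NDRG2 is the only member whose gene model overlaps opposite-strand genes that carry names, among them ARHGEF40, and the count column used here was strand-specific.

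NDRG3, the lactate-binding member, lies on the minus strand at chr20:36651766-36746090 (ENSG00000101079.21). Its normalised counts were 2740, 2846 and 2630 in control and 2437, 2421 and 2506 in knockdown libraries. The knockdown libraries lay together, a little below the lowest control library. The mean fell from 2738 ± 108 to 2455 ± 45.3 (SD, n = 3), or to 89.6% of control. This log2 fold change of -0.16 (SE 0.041, 95% interval -0.25 to -0.070) had an adjusted p of 0.0060 in the edgeR quasi-likelihood test but was well under the fold cutoff. With scaling by library size alone it was -0.095 with an adjusted p of 0.063.

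NDRG4, the brain and heart member, lies on the plus strand at chr16:58462846-58513628 (ENSG00000103034.14). Its control libraries held 582, 532 and 440 normalised counts, against 109, 86.4 and 120 in the knockdown libraries. The lowest control library was still several times the highest knockdown library. The mean was 518 ± 71.9 in control and 105 ± 17.2 in knockdown cells (SD, n = 3), or 20.2% of control. Its log2 fold change of -2.31 (SE 0.13), which was the value behind the choice of the family, ranked 15 of 15155 from the most lowered gene. In raw counts NDRG4 rested on 615, 472 and 425 read pairs in control and 128, 89 and 106 in knockdown libraries, the thinnest of the family in knockdown cells.

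Levels were compared between members per length, as counts per kilobase of merged exons and per 1000000 counts of the TMM-adjusted library size (RPKM). In control cells NDRG3 had the highest level per length, 26.0 ± 1.02 RPKM (SD, n = 3), followed by NDRG1 with 17.1 ± 0.80. NDRG4 with 1.66 ± 0.23 and NDRG2 with 1.39 ± 0.055 RPKM came last, and their libraries overlapped, so these neighbours were not separated. In knockdown cells NDRG3 had 23.3 ± 0.43 RPKM, NDRG1 9.74 ± 0.32, NDRG2 1.22 ± 0.069 and NDRG4 0.337 ± 0.055, with no overlap between neighbours. NDRG4 thus moved from beside NDRG2 to below it in every knockdown library. The order depended on the length used. With the longest transcript of each gene, NDRG1 (51.6 RPKM) stood above NDRG3 (28.4 RPKM) and NDRG2 (3.53 RPKM) above NDRG4 (3.13 RPKM) in control cells. The control libraries of NDRG2 (3.38 to 3.65 RPKM) and NDRG4 (2.66 to 3.52 RPKM) overlapped again, so this pair was not separated.

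**Figure D1:**
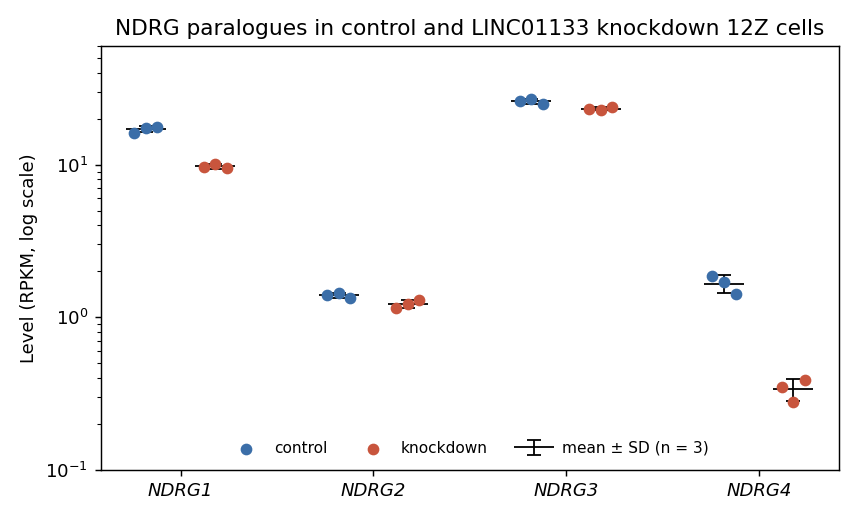
Level of each NDRG member (RPKM over merged exons, log scale) in the 3 control (blue) and 3 knockdown (red) libraries, 1 point per library, with the mean and SD in black. NDRG4 drops from 1.66 to 0.337 RPKM and NDRG1 from 17.1 to 9.74 RPKM, while the points of NDRG2 and NDRG3 stay close together.

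Summed over the 4 members, the family level per length was 46.1 ± 1.29 RPKM in control and 34.6 ± 0.31 RPKM in knockdown cells (SD, n = 3), or 74.9% of control. This sum includes NDRG4, which chose the family. NDRG3 made up 56.3 ± 1.12% of the sum in control and 67.3 ± 0.83% in knockdown cells. The share of NDRG1 was 37.1 ± 1.67% in control and 28.2 ± 1.06% in knockdown cells. NDRG2 held 3.02% and 3.52%, and NDRG4 held 3.60% and 0.973%, respectively. The sum and the shares rest on merged exon lengths. With the longest transcript of each gene, NDRG1 and not NDRG3 was the largest member, at 51.6 against 28.4 RPKM in control cells. In knockdown cells these were 29.3 and 25.5 RPKM.

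To compare members without any scaling between libraries, the ratio of their raw counts within each library was taken on the log2 scale after adding 0.5 to each count. The log2 ratio of NDRG1 to NDRG3 was 1.20, 1.26 and 1.38 in control and 0.62, 0.70 and 0.55 in knockdown libraries. NDRG1 therefore had 2.43 counts for each count of NDRG3 in control and 1.54 in knockdown cells. The difference of -0.66 had an exact permutation p of 0.10 (two-sided, n = 3 against 3), the smallest that this design allows, and 0.20 after adjustment over the 2 ratios tested. The log2 ratio of NDRG2 to NDRG3 was -3.01 ± 0.012 in control and -3.04 ± 0.064 in knockdown libraries (SD, n = 3), a difference of -0.038 with an exact permutation p of 0.50 (adjusted 0.50). The log2 ratio of NDRG4 to NDRG3 was -2.41 in control and -4.55 in knockdown libraries, and that of NDRG4 to NDRG1 was lower by 1.49 in knockdown libraries (-3.69 against -5.18), both without a test.

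**Figure D2:**
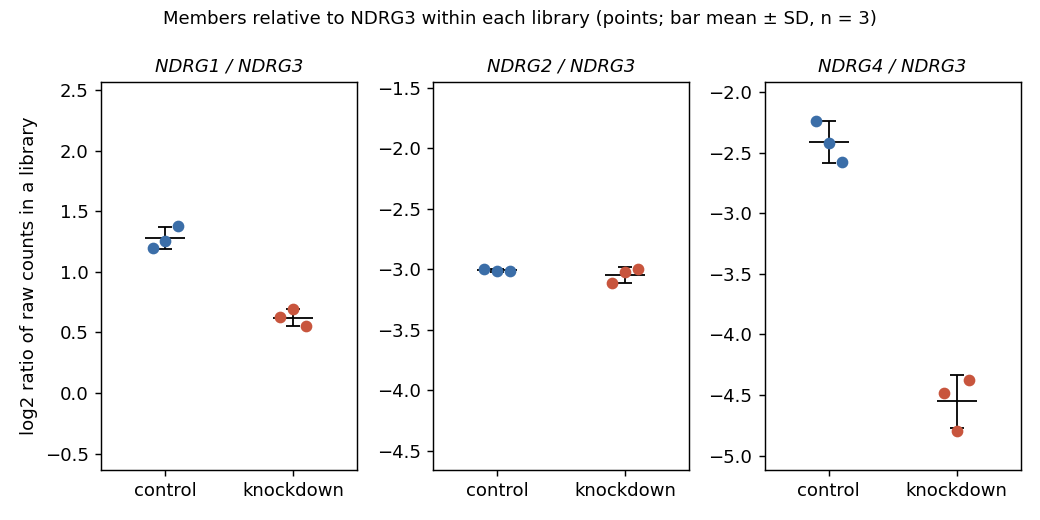
Log2 ratio of raw counts of NDRG1, NDRG2 and NDRG4 to NDRG3 within each of the 3 control (blue) and 3 knockdown (red) libraries, with the mean and SD in black and the same height of log2 units in each panel. The NDRG1 ratio drops from 1.28 to 0.62 and the NDRG4 ratio from -2.41 to -4.55, while the NDRG2 ratio stays near -3.01.

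The 3′ UTRs of the members were searched for matches to the siRNA seeds, in the annotated transcripts of 12518 tested genes. The word AGAATGG, which pairs with the guide seed, was found in 20.7% of these genes, and its extension by an A opposite guide base 1 in 7.14%. The word GTAACTT, which pairs with the passenger seed, was found in 15.8%, and in 4.03% with that A. NDRG1 held 1 extended guide match, in 2 of its transcripts, and 1 passenger match without the extension. NDRG4 held 1 extended passenger match, in 8 transcripts, and no guide match. NDRG2 and NDRG3 held none of these words. The longest unbroken run shared with the 19-base target of the oligo was 10 bases in any member. The NDRG4 match lies in a 3′ UTR exon at chr16:58511786-58511792 (GRCh38, plus strand) and is shown with its flanks, the word in capitals.
NDRG4 match: cactctccgtgGTAACTTagccaacttga
These are matches of letters, and their part in the lower counts was not tested.

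The regulators from which the family takes its name were followed in a list of 14 genes of the MYC network, of which 13 were tested. None was DE and higher and 2 were DE and lower, beside 5.3% and 6.43% of all tested genes. Another 8 had an adjusted p under 0.05 (edgeR) but were under the fold cutoff. Of these, MLX (0.53), MXD1 (0.38), MXD4 (0.33), ZBTB17 (0.32), MNT (0.28), MXD3 (0.23) and MAX (0.14) were higher. MXI1 (-0.18) was lower. MXD3 stood at 0.12 without control replicate 2, MAX at 0.093 with unstranded counts and MXI1 at -0.11 with library size alone. The median log2 fold change of the list was 0.14, against 0.0032 over all tested genes. MYCN, which encodes N-myc, had 123, 92.4 and 87.0 normalised counts in control and 46.6, 39.8 and 71.5 in knockdown libraries. These counts were low and knockdown replicate 3 stood above the other two, but no knockdown library reached a control library. Its log2 fold change was -0.97 (SE 0.21, adjusted p = 0.0017, edgeR). MYCL, another MYC paralogue, fell from 265 to 124 normalised counts (log2 fold change -1.09, SE 0.11, adjusted p = 4.2e-06, edgeR). MYC itself had 2466 ± 72.1 normalised counts in control and 2411 ± 114 in knockdown cells (log2 fold change -0.031, adjusted p = 0.59, edgeR, 95% interval -0.13 to 0.064). MYCN and NDRG1 were lower in the same libraries.

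**Figure D3:**
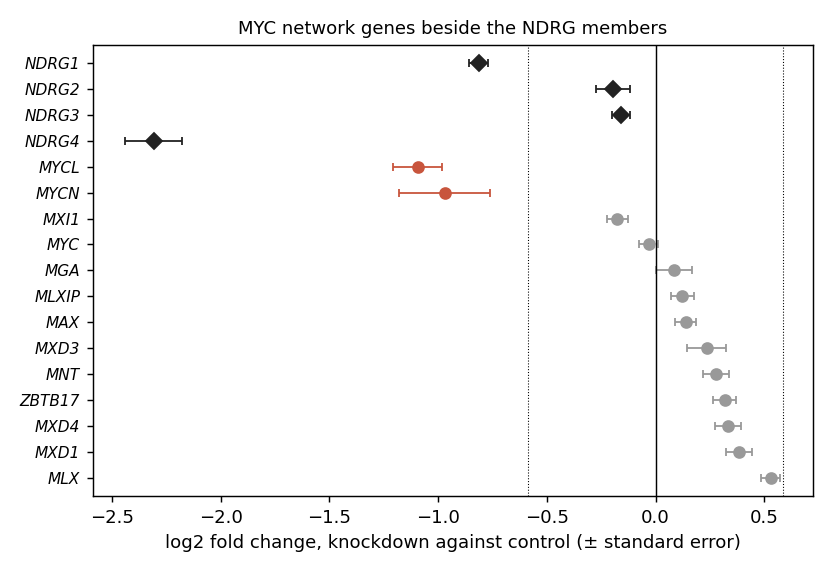
Log2 fold change (knockdown against control, bars SE) of the NDRG members (black diamonds) and of the tested genes of the MYC network (red, DE; grey, not DE), with dotted lines at the fold cutoff of 1.5. MYCL (-1.09) and MYCN (-0.97) lie with NDRG1 (-0.81) below the cutoff, and MYC (-0.031) lies at 0. Most other genes of the network lie to the right of 0, up to MLX (0.53).

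NDRG1 belongs to the genes that hypoxia induces, and 23 other such genes were followed beside it. All 23 listed genes were tested, of which 6 were DE and lower and 1 was DE and higher, beside 6.43% and 5.3% of all tested genes. The median log2 fold change of the list was -0.35, and the groups did not overlap in 21 of the 23, beside 57.3% of all tested genes. CA12 and CA9, carbonic anhydrases of the cell surface, had log2 fold changes of -1.57 (SE 0.041, adjusted p = 3.1e-11) and -1.49 (SE 0.14, adjusted p = 2.2e-06) in the edgeR test. CA12 fell from 2436 ± 33.9 to 820 ± 13.8 normalised counts (SD, n = 3), and CA9 from 116 ± 6.07 to 41.0 ± 3.69. PFKFB4, a regulator of glycolysis, fell by 1.09 on the log2 scale (SE 0.065, adjusted p = 2.8e-08, edgeR). The glucose transporter SLC2A3 fell by 1.06 (SE 0.046, adjusted p = 1.9e-09, edgeR). PFKFB3 at -0.72 and the hexokinase HK2 at -0.60 were also DE and lower, and ANKRD37 was DE and higher at 0.60. HK2 lay close to the fold cutoff and was DE in 10 of 13 alternatives, ANKRD37 in 9 of 13. VEGFA, the angiogenic factor, was higher by 0.46 on the log2 scale (adjusted p = 3.9e-06, edgeR) but under the fold cutoff.

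Of 9 tested hypoxia regulators, 1 was DE and lower and none was higher, beside 6.43% and 5.3% of all tested genes. Their median log2 fold change was -0.073, and -0.010 with library size alone. EGLN3, a prolyl hydroxylase that is itself induced by hypoxia, fell from 310 to 152 normalised counts (log2 fold change -1.04, SE 0.12, adjusted p = 9.7e-06, edgeR). HIF1A, the oxygen-regulated subunit of the hypoxia-inducible factor, had a log2 fold change of -0.50 (SE 0.049, adjusted p = 2.8e-06, edgeR), under the fold cutoff. EGLN2, another prolyl hydroxylase, stood at 0.56, just under the cutoff, and the number of DE regulators was 2 in 5 of the 13 alternatives.

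**Figure D4:**
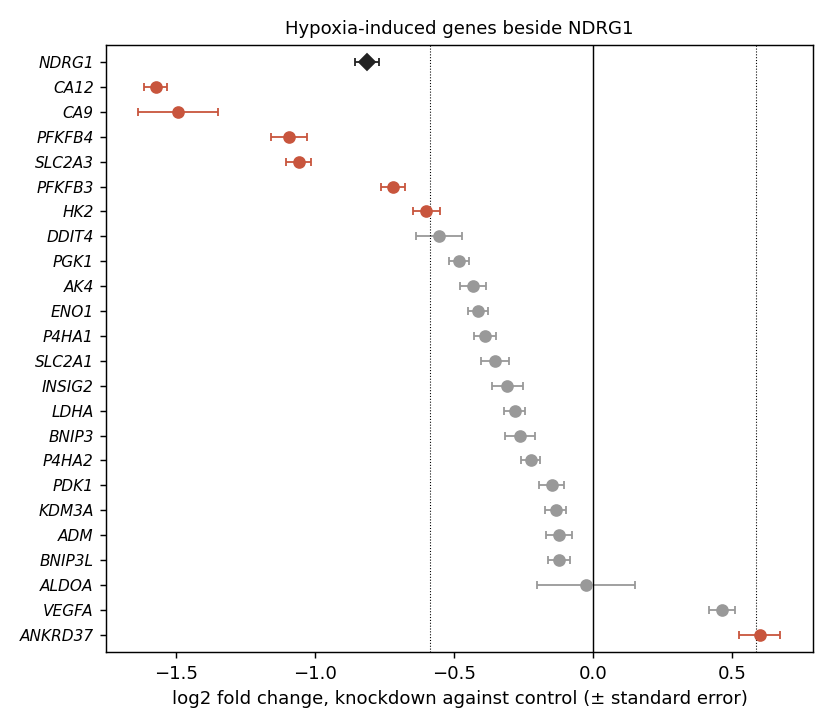
Log2 fold change (knockdown against control, bars SE) of NDRG1 (black diamond) and of the 23 other hypoxia-induced genes (red, DE; grey, not DE), with dotted lines at the fold cutoff of 1.5. Most hypoxia-induced genes lie left of 0 with NDRG1, from CA12 (-1.57) onward, whereas ANKRD37 (0.60) and VEGFA (0.46) lie to the right.

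The kinases and partners that act on NDRG1 were measured in a list of 13 genes of SGK, GSK3, AKT and mTORC2, of which 12 were tested. None was DE in either direction, beside 11.7% of all tested genes, and the median log2 fold change was 0.087. That median was 0.033 without control replicate 1, 0.053 without knockdown replicate 3 and 0.15 with library size alone. The largest differences were those of AKT1 at 0.44 (SE 0.041, adjusted p = 1.7e-06, edgeR) and MAPKAP1, an mTORC2 subunit, at 0.34 (SE 0.038, adjusted p = 1.1e-05, edgeR). SGK1, the kinase for which NDRG1 phosphorylation is used as a readout, stood at -0.10 (adjusted p = 0.11, edgeR). These values are transcript levels, and phosphorylation was not measured here.

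E-cadherin recycling, in which NDRG1 takes part with the GTPase RAB4A, was followed in 9 tested genes. Of these, 2 were DE and lower and 1 was DE and higher, beside 6.43% and 5.3% of all tested genes. CDH1, which encodes E-cadherin, fell from 412 ± 36.6 to 102 ± 21.0 normalised counts (log2 fold change -2.02, SE 0.12, adjusted p = 3.9e-08, edgeR). The paper reports the loss of E-cadherin by qRT-PCR and Western blot. In its qRT-PCR the CDH1 transcript was also lower, though less so, with another oligo, LINC01133b. CTNNB1, which encodes beta-catenin, a partner of E-cadherin, fell by 0.70 on the log2 scale (SE 0.034, adjusted p = 5.3e-09, edgeR). RAB4B rose from 20.7 to 41.8 normalised counts (log2 fold change 1.05, SE 0.32, adjusted p = 0.014, edgeR), a call that was lost without control replicate 1 (log2 fold change 0.96), control replicate 3 (0.74) or knockdown replicate 1 (0.87). The median log2 fold change of the list was -0.14, and -0.076 with library size alone.

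For NDRG3, 11 tested genes of lactate handling and RAF signalling held no DE gene, beside 11.7% of all tested genes. Their median log2 fold change was -0.013, and its sign turned with library size alone (0.050) and without control replicate 2 (0.0013). The lactate transporter SLC16A1 had the largest difference, -0.41 (SE 0.039, adjusted p = 2.2e-06, edgeR), under the fold cutoff. LDHB, a lactate dehydrogenase subunit, followed at -0.39 (SE 0.20, adjusted p = 0.13, edgeR) and was DE only without knockdown replicate 1 (log2 fold change -0.66), whereas it stood at -0.21 without knockdown replicate 3 (adjusted p = 0.40, edgeR). For NDRG4, 4 tested genes of the POPDC family and of vesicle fusion held 1 DE gene, beside 11.7% of all tested genes. This gene, BLZF1, encodes a protein of the Golgi matrix and was higher at 0.88 (SE 0.054, adjusted p = 3.8e-08, edgeR). The median log2 fold change of these 4 genes was 0.18.

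The nearest tested genes on either side of each member were compared with it. Here before and after mean lower and higher chromosome coordinates. For NDRG1, NDRG2 and NDRG3, on the minus strand, before is thus the side of the 3′ end. CCN4, 5.49 kb before NDRG1 on the opposite strand, encodes a secreted matricellular protein and was DE and lower at -0.85 (SE 0.16, adjusted p = 8.1e-04, edgeR). Its counts were low, with means of 70.2 in control and 38.7 in knockdown cells (normalised counts). ST3GAL1, a sialyltransferase gene 153 kb after NDRG1, was DE and lower at -0.74 (SE 0.050, adjusted p = 8.0e-08, edgeR). Both neighbours of NDRG1 were therefore DE and lower with it, beside 6.43% of all tested genes. The neighbours of NDRG4 were not DE and differed from each other in direction, with GINS3, a replication factor gene 56.7 kb before it, at -0.43 and SETD6, a lysine methyltransferase gene 1.85 kb after it, at 0.44. Around NDRG2, METTL17 (0.11) and ZNF219 (-0.13) were not DE, nor was the overlapping ARHGEF40 (0.51). METTL17 stood at 0.028 without control replicate 2, and ZNF219 at -0.064 with library size alone. Around NDRG3, RAB5IF (-0.36) and DSN1 (-0.11, or -0.045 with library size alone) were not DE.

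The genes whose pattern over the 6 libraries was most like that of each member were found among 11174 genes with a mean of at least 100 normalised counts, by the root mean square difference of centred log2 CPM. For NDRG1 they were SPART (0.034), CDC27 (0.035) and GFOD1 (0.039). For NDRG2 they were DPY19L3 (0.017), ZMYM2 (0.021) and FAP (0.022), and for NDRG3 they were ATP6V0A1 (0.011), DEPDC7 (0.013) and IPO9 (0.014). The nearest to NDRG4 were DIRAS3, a RAS-like GTPase gene (0.158), DRAM1, an autophagy gene (0.193), and N4BP2 (0.204), with log2 fold changes of -2.35, -1.97 and -2.61. These distances grow with the member's own spread, so they are not comparable between members. The SD of centred log2 CPM was 1.27 for NDRG4, against 0.449 for NDRG1, 0.123 for NDRG2 and 0.0947 for NDRG3. The median distance over all ranked genes was 1.16 for NDRG4, against 0.412, 0.152 and 0.136, respectively. With 6 libraries in 2 groups, this likeness mostly ranks genes by their fold change.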

How the data were processed

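Per the submitters' processing notes and the paper, the authors aligned paired-end reads with STAR 2.7.6a (SAMtools 1.10) to GRCh38.p13 with an earlier GENCODE release than the models used here for positions and lengths, kept reads that mapped to 1 place, and deposited raw counts per gene, unnormalised, in unstranded and stranded columns. The labels and the paper name different library kits. The column opposite to read 1 was used, which held 93.9 to 94.1% of the stranded counts. Per library, reads in no feature were 4.38 to 5.22% of uniquely mapped reads and ambiguous reads 3.88 to 4.23%; both stayed out of library sizes. Genes were filtered with filterByExpr (minimum count 10), scaled by TMM and tested in edgeR 4.0.16 by quasi-likelihood (R 4.3.3, limma 3.58.1). The model held condition alone, and p-values were adjusted by Benjamini-Hochberg over the 15155 genes tested. The fit was first tested on simulated data.

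The alternatives were DESeq2 1.42.0, other size factors, other filters, unstranded counts, a replicate block and leaving out each library. The members and the gene lists were chosen with earlier results of these data known. Genes were named as follows: the members and LINC01133; in each list up to 4 DE genes with the largest fold change, or the 2 largest where none was DE; the nearest tested gene on either side; the 3 most alike genes; and markers at 0 counts, of which 1 is not reported here. PFKFB3, HK2, ANKRD37, VEGFA, HIF1A, EGLN2, SGK1, MYC, ARHGEF40 and the markers above 0 counts were named after their values were seen. The same holds for the MYC network genes under the fold cutoff. The siRNA strands came from the sequences in the study's supplement, and promoters from RefSeq (GRCh38.p14). No pairing by replicate number was seen. The deviations of same-numbered libraries from their group means correlated at -0.015, 0.0049 and 0.057. Deviations from means of 3 libraries are tied to each other, so these values cannot exclude a pairing. Depth sets the precision, and intervals cover the spread between these libraries.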

Additional observations from a re-analysis of the deposited data

Results flagged for a closer look

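NDRG4 had counts in a column that no comparison used, the column of the read 1 strand, opposite to the gene. These were 12, 5 and 7 read pairs in control and 15, 14 and 11 in knockdown libraries, or 0.245 counts per 1000000 counts on genes (CPM, here without TMM adjustment) in control and 0.408 CPM in knockdown cells (means, n = 3). The ranges did not overlap (0.168 to 0.345 against 0.397 to 0.428 CPM). These counts were flagged because every knockdown library lay above every control library, so no test is given for them. They made up 1.05 to 1.91% of the stranded counts of NDRG4 in control and 9.40 to 13.6% in knockdown libraries, where its sense counts were lower. For NDRG1, whose sense counts were lower too, the counts on this strand went from 49 to 27 in all and stayed within 0.198 to 0.286% of its stranded counts. NDRG3 went from 8 to 18 in all (0.0837 to 0.190 CPM, exact permutation p = 0.30, n = 3 against 3) and NDRG2 from 1 to 3, so higher sums on this strand were not seen for NDRG4 alone. The source of these reads was not tested.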

How the results depend on the processing

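Over 13 alternatives, the log2 fold change of NDRG1 ranged from -0.85 to -0.75 and stayed DE in all 13, and that of NDRG4 ranged from -2.41 to -2.17 (no test). NDRG2 ranged from -0.23 to -0.14 (adjusted p 0.047 to 0.21), and leaving out 1 library gave -0.23 to -0.15. It passed an adjusted p of 0.05 only without control replicate 3 (-0.23) or knockdown replicate 3 (-0.23). NDRG3 ranged from -0.18 to -0.095 (adjusted p 0.0038 to 0.063), the weakest being with library size alone, which also turned the share of DE genes that were higher from 45.2% to 55.9% and moved the median of all genes from 0.0032 to 0.0655. The difference in the NDRG1 to NDRG3 ratio ranged from -0.70 to -0.61 over 9 alternatives. RPKM over the longest transcript was 51.6 and 29.3 for NDRG1, 3.53 and 3.08 for NDRG2, 28.4 and 25.5 for NDRG3, and 3.13 and 0.635 for NDRG4 (control and knockdown). Unstranded counts gave 10.5, 1.30, 25.1 and 0.407 RPKM in knockdown cells. These were divided by the unstranded library total without TMM adjustment, so they differ from the main values in scaling as well as in strand. The count of DE genes was 1462 (DESeq2) to 1963 (no filter), and 1747 with the replicate block, which changed no call of a member (NDRG1 -0.81, NDRG2 -0.20, NDRG3 -0.16). Not every library correlated best with its own number. Of 923 other combinations of a result and an alternative, 860 stayed the same, 47 lost and 7 gained significance, 9 moved and 0 reversed. A gene's change of sign counted as reversed only where its adjusted p was under 0.05 in either fit, and otherwise as the same. MYC changed sign in this way with library size alone (0.031) and without knockdown replicate 3 (0.0088). With 3 libraries a group, small differences such as that of NDRG2 lie at the limit of what these data resolve.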

Other observations

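Further lists bear on what NDRG1 and the family are known for. Of 14 genes of iron uptake, storage and sensing, 1 was DE and lower and none was higher, beside 6.43% and 5.3% of all tested genes. Their median log2 fold change was -0.22. HMOX1, the heme oxygenase that frees iron from heme, fell from 1308 ± 126 to 773 ± 13.4 normalised counts (log2 fold change -0.76, SE 0.065, adjusted p = 8.2e-07, edgeR). Of 13 genes with an alpha/beta hydrolase fold outside the NDRG family, 1 was DE and lower, beside 6.43% of all tested genes. Their median log2 fold change was -0.20. EPHX1, the microsomal epoxide hydrolase, fell by 0.69 on the log2 scale (SE 0.051, adjusted p = 2.0e-07, edgeR).

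In 300-base promoter windows, the E-box CACGTG, a MYC-binding word that reads the same on both strands, was found in 7.26% of 35116 windows, and the hypoxia core ACGTG, searched on both strands and contained in that E-box, in 21.4%. The 5 windows of NDRG2 and the 4 windows of NDRG4 held neither word. The windows of NDRG1 and NDRG3 were not analysed here.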
